A study of Mus musculus with 24 samples.

Results

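The growth hormone and IGF1 axis was followed here through 10 genes in inguinal white adipose tissue of young mice, out of 16118 genes in the deposited table. The genes were taken by symbol alone: Ghr, Stat5b, Cish, Socs2, Igf1, Igf1r, Igfbp2, Igfbp3, Igfbp4 and Igfbp5. All 10 had a value in the table, and all 10 passed the filter on low values that left 16005 genes for testing. Inguinal white fat is a subcutaneous depot, and in female mice it also holds a mammary gland.

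Growth hormone from the pituitary binds its receptor, which activates the kinase Jak2 and the transcription factors Stat5a and Stat5b. Stat5 raises transcription of Igf1 and of the feedback inhibitors Cish and Socs2. IGF1 acts through the receptor Igf1r, and IGF binding proteins hold it in the circulation and in the tissue and control how much of it reaches the receptor. Adipocytes are a known target of growth hormone, which promotes lipolysis in them.

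Poly(A) RNA was sequenced from 24 mice, 1 library per mouse, in 6 groups of 4. Males and females were taken at postnatal day 21 (p21), or at day 28 (p28) after standard weaning (SW, in which pups left the mother at day 21) or after delayed weaning (DW, in which they were still with their mother). The labels name no strain, genotype or transgene. The question behind the design is what prolonged breastfeeding does to this depot in each sex. The titles of the 8 p21 libraries call them p28 SW, whereas their age labels and descriptions give p21, and p21 was followed. Their weaning labels and descriptions also carry SW, and these animals are called p21 alone here. The title of p21 female 56 also carries another animal number than its ID and description.

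Recovered reads in the listed genes ranged from 57600711 to 302145813 per library. The shallowest library, p21 male 53, had 14054 genes above 0, and SW male 84 had 15497, against 15859 to 16066 in the other libraries. Adipocyte markers were high throughout, from 306 (lowest Cidec) to 17456 (highest Fabp4), with Adipoq between 787 and 1527. Some varied widely inside a group, such as Pnpla2 in DW females, at 465 to 1860. Skeletal muscle markers (6 of 6 in the table) summed to between 1.58 and 5492 over the libraries and overlapped between all groups. DW females 82 and 83 stood apart from 76 and 77 in several marker lists. Their adipocyte sums were 16055 and 16145 against 21966 and 18376. Their endothelial sums were 873 and 779 against 1315 and 1364, their macrophage sums 194 and 202 against 264 and 292, and their erythroid sums 138 and 101 against 349 and 294. Their liver sums (2 of 3 markers in the table, and almost all Alb) were 59.7 and 53.4 against 35.1 and 35.6. Gene values are the deposited normalised ones, and group values are means ± SD over n = 4 animals. Differences are from limma on log2(value + 1), with Benjamini-Hochberg adjusted p-values over all genes tested, and a gene was called at an adjusted p under 0.05. In whole tissue, fewer cells of a type and less RNA per cell cannot be told apart.

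Of the 10 genes, the binding protein genes Igfbp3 and Igfbp2 were called in 1 or more comparisons, and the receptors, Stat5b, Cish, Socs2, Igf1, Igfbp4 and Igfbp5 in none. Igfbp3 was lower at p28 than at p21 in SW males, SW females and DW females, by 0.76 to 0.92 on the log2 scale. Igfbp2 was higher in SW females than in SW males. No member was called between DW and SW animals of either sex. Cish, a feedback inhibitor gene, differed 21.4-fold between the lowest and the highest animal without following the groups.

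Between DW and SW males, 0 of the 10 members were called, and 0.256% of all genes were. Between DW and SW females it was 0 of 10 against 1.27% of all genes. The difference of these effects between the sexes likewise gave 0 of 10 against 0.0187%. At an unadjusted p under 0.05, 0 members passed in males, 2 in females (Igfbp2 and Igfbp5) and 0 for the difference between the sexes. The same held for 6.94%, 18.9% and 5.09% of all genes, so that 2 of 10 in females is close to the share of all genes. edgeR and DESeq2 on the recovered reads also called 0 members in these 3 comparisons. Without DW female 76, limma called Igfbp2 lower in DW than in SW females (log2 change -0.96, adjusted p = 0.0451). That fit called 1996 of the 16005 genes tested, against 204 with all animals. The median log2 change of the members was -0.12 in males and -0.05 in females, beside medians of 0.00 and -0.02 over all genes.

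From p21 to p28, 1 of 10 members was called in SW males (11.9% of all genes), 1 in SW females (11.6%), 0 in DW males (15.0%) and 1 in DW females (12.1%). In each of the groups with a call the gene was Igfbp3. These shares lie near those of all genes. In DW males 0 members passed at an unadjusted p under 0.05, and edgeR and DESeq2 called 0. For the difference between the sexes in the change from p21 to SW, 0 members were called, against 1.03% of all genes, 1 passed at an unadjusted p under 0.05, and edgeR and DESeq2 called 0. Females and males differed in 0 members at p21 (0.356% of all genes), in 1 after SW (3.54%) and in 0 after DW (2.46%). At an unadjusted p under 0.05, 0 members passed at p21, 1 after SW and 1 after DW. edgeR called 0 and DESeq2 0 at p21, and after DW edgeR called 0 and DESeq2 1, Igfbp2. The comparisons with p21 share the same p21 animals, and those with SW share the same SW animals, so their calls are not independent of each other.

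**Figure D1:**
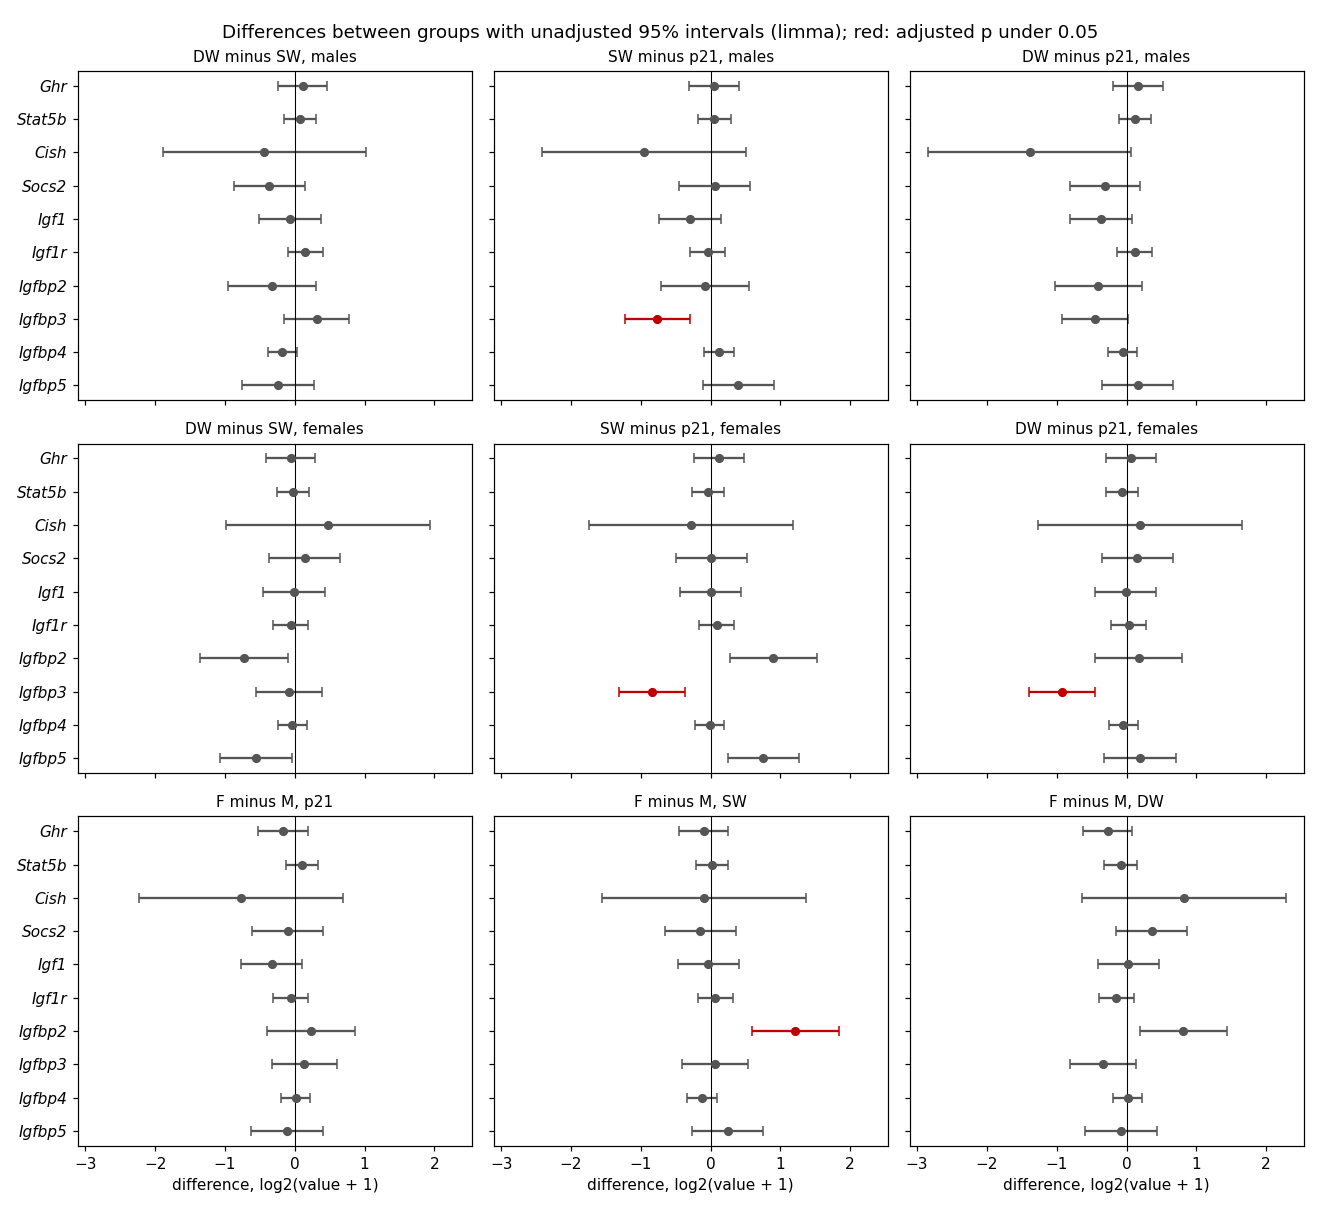
Difference between 2 groups (x axis, log2(value + 1)) for each of the 10 genes (y axis), with its 95% interval from limma, not adjusted for the number of genes. Each panel is 1 comparison; red marks an adjusted p under 0.05, which holds for Igfbp3 in 3 of the comparisons with p21 and for Igfbp2 between SW females and SW males.

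Levels of different genes were compared per kilobase of merged exons (GENCODE M21 gene models). This length pools the exons of all annotated transcripts and can exceed that of the transcripts present. For Cish it was 6419 bases, nearly the whole gene, and for Socs2 9531. Values per kb can thus be too low, to a different degree in each gene, and close ranks depend on the length used. Igfbp5, which codes for a binding protein that attaches to the extracellular matrix, had the highest mean of the 10, at 130.7 per kb. Ghr followed at 75.5 per kb, then Igfbp4 at 50.3 and Igf1 at 37.6 per kb. Igfbp3 stood at 19.7 and Stat5b at 8.64 per kb. The lowest means were those of Igf1r (2.39 per kb), Cish (2.19), Socs2 (1.24) and Igfbp2 (0.877). The growth hormone receptor gene therefore stood above the IGF1 receptor gene in every animal, with a lowest value of 52.4 per kb against a highest of 2.84. The ranges of Cish and Igfbp2 over the 24 animals were wide enough to overlap those of Igf1r and Socs2.

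**Figure D2:**
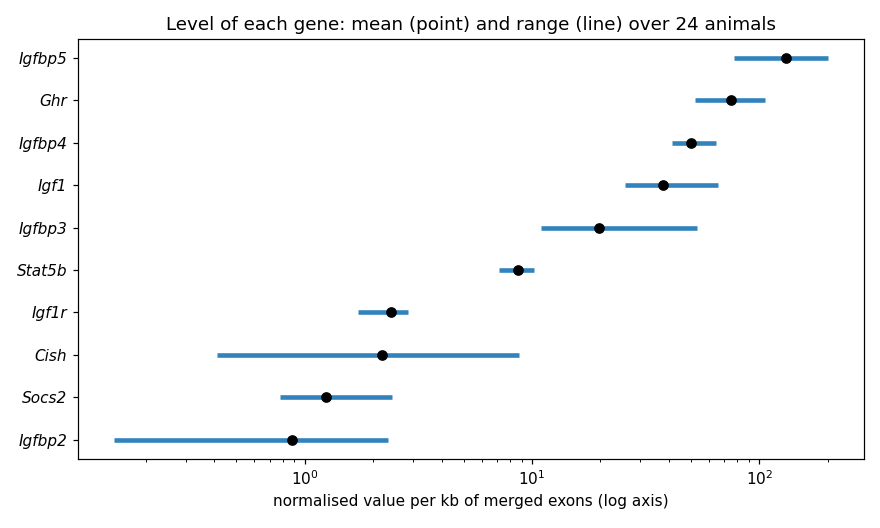
Normalised value per kb of merged exons (x axis, log scale) for each gene (y axis); the point is the mean and the line the range over 24 animals. Igfbp5 (130.7) and Ghr (75.5) lie highest, and the lines of Cish and Igfbp2 are the longest.

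The receptor gene Ghr (ENSMUSG00000055737; chromosome 15, 3347242 to 3612974 as deposited) varied 2.02-fold over the animals, with an SD within groups of 0.245 on the log2 scale. Group means ran from 615 ± 108 in p21 females to 769 ± 92.1 in DW males, and every pair of neighbouring groups in that order overlapped. Here and below, neighbours in the order of means are the closest groups, so their overlap says little about groups farther apart. The lowest animal was p21 female 30, at 474, and the highest p21 male 37, at 959. No Ghr comparison was called. The widest difference was that between DW females and DW males, -0.27 (SE 0.171, 95% interval -0.62 to 0.09, adjusted p = 0.388). For DW against SW the log2 difference was 0.11 in males (95% interval -0.24 to 0.47) and -0.06 in females (-0.41 to 0.30).

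Stat5b, the transcription factor downstream of the receptor, was among the steadiest members. Its group means lay between 45.7 ± 6.07 in p21 males and 49.7 ± 2.63 in DW males. Individual animals ran from 39.6 (SW female 73) to 56.7 (SW male 124), a 1.43-fold range. Its SD within groups was 0.152 on the log2 scale, below the median of 0.226 over 13077 genes whose log2 values averaged 1 or more. All neighbouring groups overlapped and no comparison was called; the DW minus SW difference was 0.07 in males (95% interval -0.16 to 0.30) and -0.03 in females (-0.26 to 0.20).

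Cish codes for a SOCS-family protein that Stat5 induces and that blunts signalling from the receptor. The gene lies on chromosome 9 (107173225 to 107179983 as deposited, plus strand). Of the 10 members, 9 had a promoter window in RefSeq (GRCm38.p6, from 250 bases before to 50 after the annotated start), in 12 windows. The letters TTCNNNGAA, the core of the sites that STAT factors bind, were found in the window of 1 member, Cish, where they occur at 2 places, the first letters lying at bases 1 and 12 counted from the start site. The motif is its own reverse complement, so both strands are covered. It is present in 8.30% of the 32851 windows in the table. The Cish window is shown because it alone of the members' windows holds the motif, and those of Igfbp3 and Igfbp2 because the calls in the members rest on these genes. Capitals mark TTCNNNGAA, and each runs 5′ to 3′ on the gene's own strand.
Cish, chr9:107296409-107296708, plus strand: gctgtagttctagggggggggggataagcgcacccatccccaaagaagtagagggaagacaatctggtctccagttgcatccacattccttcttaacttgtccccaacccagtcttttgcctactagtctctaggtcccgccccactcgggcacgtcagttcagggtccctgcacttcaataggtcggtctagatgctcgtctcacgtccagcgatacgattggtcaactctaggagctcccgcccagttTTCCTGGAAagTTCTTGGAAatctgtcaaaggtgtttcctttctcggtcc
Igfbp3, chr11:7213874-7214173, minus strand: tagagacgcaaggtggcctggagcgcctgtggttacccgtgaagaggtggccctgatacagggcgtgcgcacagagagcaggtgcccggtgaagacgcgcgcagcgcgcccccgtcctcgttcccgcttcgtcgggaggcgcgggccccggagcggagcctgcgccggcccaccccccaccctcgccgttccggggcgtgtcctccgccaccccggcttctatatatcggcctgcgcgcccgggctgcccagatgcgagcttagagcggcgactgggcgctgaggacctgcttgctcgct
Igfbp2, chr1:72824230-72824529, plus strand: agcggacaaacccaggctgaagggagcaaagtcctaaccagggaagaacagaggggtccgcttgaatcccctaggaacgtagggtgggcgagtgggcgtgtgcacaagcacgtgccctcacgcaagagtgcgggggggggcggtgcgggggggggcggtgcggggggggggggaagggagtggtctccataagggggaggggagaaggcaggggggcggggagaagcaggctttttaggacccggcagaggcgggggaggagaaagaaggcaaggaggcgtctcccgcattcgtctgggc
A match is a description of the letters and not a bound site, and no match says only that these letters are not in the window. The letters GGGCGG, on either strand, were in 5 of the 12 windows (35.7% of all windows) and TATAAA, on either strand, in 2 (13.6% of all windows).

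Cish values spread more within groups than between them. The p21 males were at 24.1, 56.3, 4.99 and 16.2 (animals 37, 38, 53 and 54), and the p21 females at 26.7, 9.54, 6.45 and 7.12 (30, 36, 55 and 56). The SW males were at 20.8, 12.6, 4.51 and 5.37 (78, 84, 85 and 124), and the SW females at 12.3, 10.0, 5.28 and 7.80 (73, 74, 75 and 81). The DW males were at 5.57, 15.4, 2.63 and 7.05 (79, 80, 86 and 87), and the DW females at 29.8, 37.9, 5.60 and 2.85 (76, 77, 82 and 83). Each group held an animal at or below 6.45, and no pair of groups was apart. In DW females the animals fell into a high pair, 76 and 77, and a low pair, 82 and 83. The SD of Cish within groups was 1.09 on the log2 scale, larger than that of 99.5% of 13077 genes. No Cish comparison was called. The largest log2 difference, DW minus p21 males, was -1.39 (SE 0.704, 95% interval -2.85 to 0.07, adjusted p = 0.188). For DW minus SW it was -0.43 in males (95% interval -1.89 to 1.03) and 0.48 in females (-0.98 to 1.94), so that differences of over 1 on the log2 scale lie inside both intervals. Within animal numbers 73 to 80 and 81 to 87, which the labels do not call batches, the female difference was 1.83 (2 DW and 3 SW animals) and -0.80 (2 and 1).

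Socs2, the feedback inhibitor whose loss in mice gives overgrowth, was steadier than Cish. The p21 females were at 23.1, 10.2, 8.42 and 7.55 (30, 36, 55 and 56), of which animal 30 stood above every other library. All other animals lay between 7.40 (DW male 87) and 17.4 (SW male 84). Group means ran from 9.67 ± 2.08 in DW males to 12.8 ± 3.37 in SW males, all neighbouring groups overlapped, and no comparison was called. For DW minus SW the log2 difference was -0.37 in males (SE 0.245, adjusted p = 0.885) and 0.14 in females (adjusted p = 0.777). The difference between these effects was 0.51 (95% interval -0.21 to 1.22, adjusted p = 0.802). The animal with the highest Cish was also the animal with the highest Socs2 in 3 of the 6 groups: p21 females, SW females and DW females. Socs2 shared its highest animal as often with Ghr, Igfbp3 and Igfbp4, and in 4 groups with Igfbp5.

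**Figure D3:**
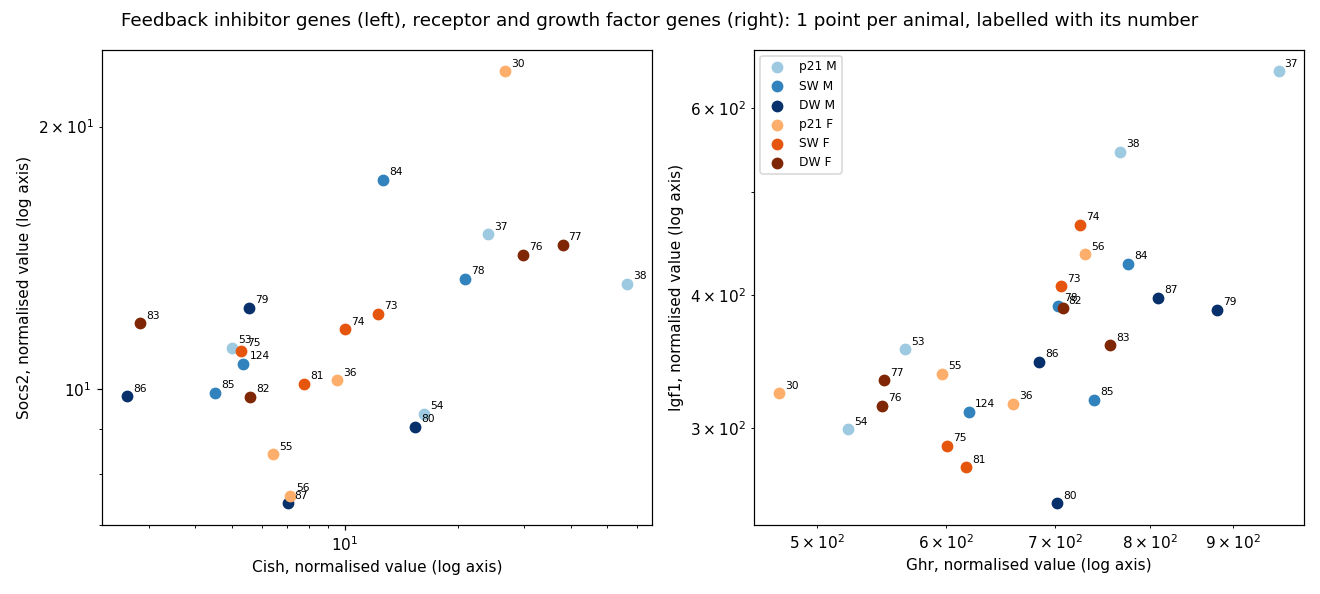
Left, Socs2 against Cish; right, Igf1 against Ghr, both in normalised values on log axes, 1 point per animal in the colour of its group. Cish spans 2.63 to 56.3 within mixed groups, and p21 males 37 and 38 lie at the top of the Igf1 axis.

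Igf1 codes for the growth factor that gives the axis its name. The p21 males were at 649, 545, 356 and 299 (37, 38, 53 and 54), a mean of 462 ± 163. In the other groups means lay between 346 ± 64.99 (DW males) and 362 ± 56.8 (SW males), with animals from 255 (DW male 80) to 466 (SW female 74). Apart from p21 males 37 and 38, then, no animal was above 466, and all neighbouring groups overlapped. No Igf1 comparison was called: DW minus SW was -0.07 in males (SE 0.212, 95% interval -0.51 to 0.37) and -0.01 in females (-0.45 to 0.43). The largest log2 difference was that of DW minus p21 males, -0.37 (SE 0.212, 95% interval -0.81 to 0.07, adjusted p = 0.253). In 4 of the 6 groups the animal with the highest Igf1 was also the one with the highest Ghr. The same count held for Igf1 and Igf1r, for Igfbp2 and Igfbp4, and for Igfbp5 and Socs2. Over all pairs of members it ran from 0 to 4, so the pair of Igf1 and Ghr is not particular in this.

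The p21 males with high Igf1 also had high markers of adipose progenitors and fibroblasts (Pdgfra, Dpp4, Pi16, Col1a1, Dcn and Cd34; 6 of 6 in the table). Their sums were 4613 and 5393 in animals 37 and 38, against 1980 and 2043 in animals 53 and 54, and without Col1a1 they were 1326 and 1132 against 601 and 610. The part of these cells in the Igf1 values was not tested. Over all groups the progenitor and fibroblast sums overlapped, from 1980 to 5393. The same p21 males also differed in other lists. Macrophage sums were 165 and 152 in 37 and 38 against 78.8 and 87.6 in 53 and 54. Erythroid sums were 382 and 356 against 1192 and 867, and lymph node B and T cell sums 305 and 303 against 573 and 429. The part of these other cells was not tested either.

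Igf1r, the receptor gene for IGF1, varied 1.65-fold over all animals. Group means lay between 38.6 ± 6.55 in p21 females and 43.2 ± 2.43 in DW males. The lowest animal was p21 female 36 at 28.9, and the highest p21 male 53 at 47.7. All neighbouring groups overlapped and no comparison was called. For DW minus SW the log2 difference was 0.15 in males (95% interval -0.10 to 0.40) and -0.06 in females (-0.31 to 0.19).

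Igfbp4 codes for a binding protein that mostly inhibits IGF1 and is cleaved by the protease Pappa. It was the steadiest of the 10, with an SD within groups of 0.134 on the log2 scale. Animals ran from 182 (DW male 87) to 286 (SW male 84), and group means from 213 ± 22.0 in DW males to 241 ± 32.8 in SW males. No comparison was called and all neighbouring groups overlapped. The largest log2 difference was DW minus SW in males, -0.18 (SE 0.101, 95% interval -0.39 to 0.03, adjusted p = 0.818).

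**Figure D4:**
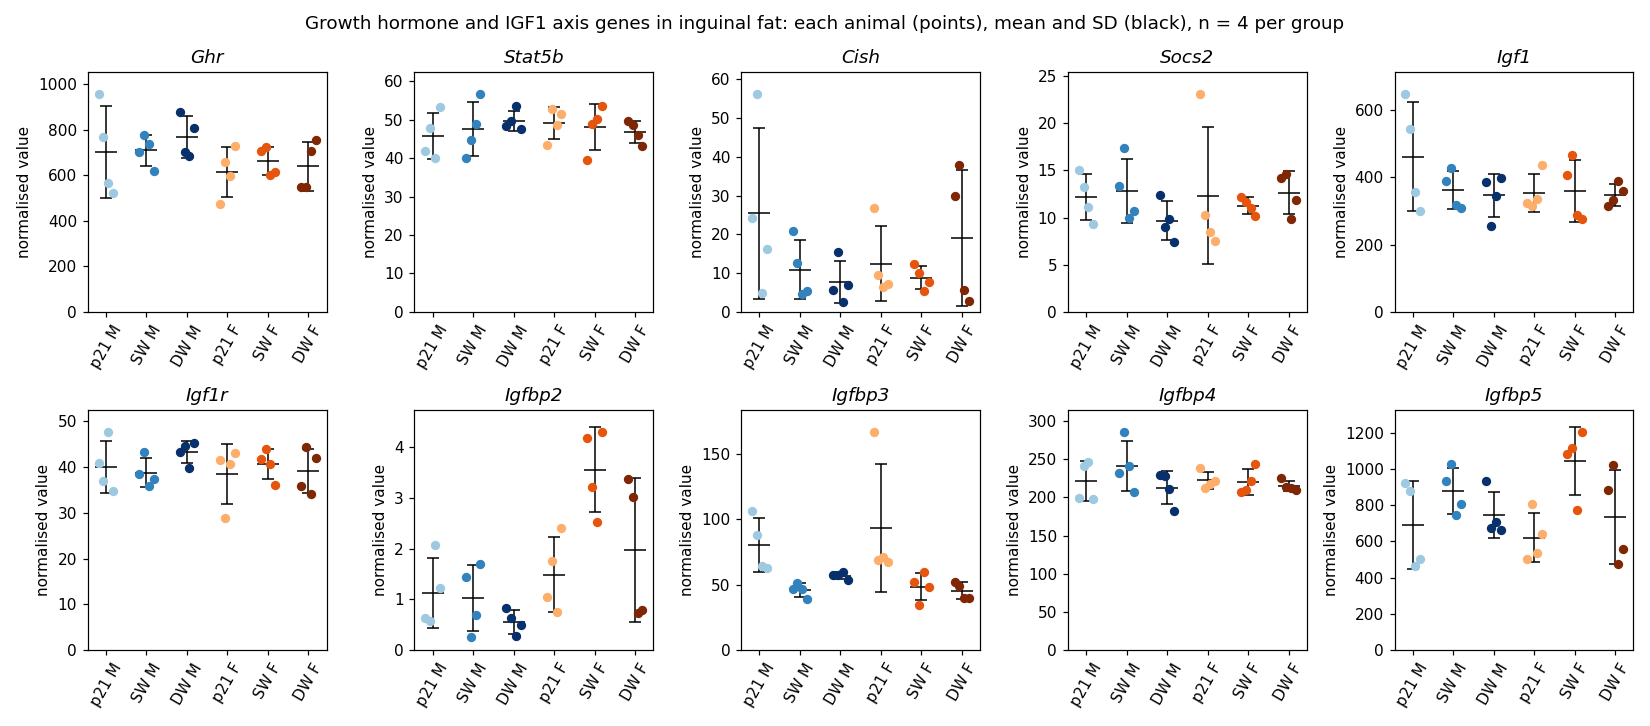
Normalised value (y axis, from 0) of each gene in each of the 24 animals (points), by group (x axis), with the mean and SD in black (n = 4). The p28 groups of Igfbp3 lie below both p21 groups, Igfbp2 is highest in SW females, and Cish spreads widely inside the groups.

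Igfbp3 codes for the main carrier of IGF1 in blood, and in tissue it is secreted by stromal and endothelial cells. The gene (ENSMUSG00000020427) lies on chromosome 11 at 7156086 to 7163923 as deposited. The p21 males were at 106.0, 87.8, 64.2 and 62.9 (37, 38, 53 and 54), and the p21 females at 166.8, 69.04, 71.4 and 67.01 (30, 36, 55 and 56). The SW males were at 47.0, 51.3, 46.4 and 38.8 (78, 84, 85 and 124), and the SW females at 51.9, 34.4, 59.7 and 48.4 (73, 74, 75 and 81). The DW males were at 57.4, 57.2, 59.8 and 53.7 (79, 80, 86 and 87), and the DW females at 52.4, 49.2, 39.5 and 40.1 (76, 77, 82 and 83). All 8 p21 animals lay above all 16 p28 animals, and p21 female 30 stood far above the others. As group means these were 80.2 ± 20.7, 93.6 ± 48.8, 45.9 ± 5.19, 48.6 ± 10.6, 57.0 ± 2.50 and 45.3 ± 6.48. In the order of the means, the step from DW males to p21 males was the one pair of neighbouring groups, over all 10 genes, whose ranges did not overlap. The order comes from these same values, so neighbours are likely to overlap from the outset. How many of all genes have such a step, or all p21 above all p28 animals, was not counted.

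From p21 to SW, Igfbp3 fell by 0.76 on the log2 scale in males (SE 0.226, limma adjusted p = 0.0305) and by 0.84 in females (SE 0.226, adjusted p = 0.0159). From p21 to DW it fell by 0.92 in females (adjusted p = 0.00983). In DW males the difference from p21 was -0.45 (95% interval -0.92 to 0.02, adjusted p = 0.182), although the ranges did not overlap. Ranges failed to overlap in 16.2% of all genes for SW males, 21.5% for SW females, 15.1% for DW females and 23.1% for DW males against p21. The change from p21 to SW differed between the sexes by -0.08 (95% interval -0.74 to 0.59, adjusted p = 0.986).

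The male call was lost without p21 male 37 (-0.62, adjusted p = 0.0927), p21 male 38 (-0.71, 0.0705), SW male 78 (-0.78, 0.0536), SW male 85 (-0.77, 0.0641) or SW male 124 (-0.69, 0.0807). Without p21 female 30 the SW female change was -0.53 (adjusted p = 0.0600), and without SW female 74 it was -0.69 (0.0716). When the fit held just the compared groups, the adjusted p was 0.0708 for SW females and 0.110 for DW females. In DW females the change was -0.61 without p21 female 30 (adjusted p = 0.0302), and it lost its call without animals 82 and 83 together (-0.75, 0.103). Without both libraries with fewer genes, p21 male 53 and SW male 84, the male change was -0.91 (adjusted p = 0.0448).

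Other markers also moved with age. Erythroid markers (Alas2, Hba-a1 and Hbb-bs; 3 of 3 in the table) summed to 356 to 1192 at p21 and to 101 to 351 at p28. Macrophage markers (Adgre1, Cd68, Mrc1 and Csf1r; 4 of 4) summed to 78.8 to 165 at p21 and to 181 to 292 at p28. Endothelial markers (Pecam1, Cdh5 and Kdr; 3 of 3) were at 953 to 1114 in p21 males, 1030 to 1594 in SW males and 1501 to 1632 in DW males, apart from p21 in the last. In females they overlapped, at 853 to 1421, 1181 to 1581 and 779 to 1364. Adipocyte markers (6 of 6) summed to 13815 to 16626 in p21 males, below the 17867 to 24287 of SW males and the 18681 to 22699 of DW males. In females the sums overlapped, from 16055 to 22548. Fabp4 was the largest term of each adipocyte sum. It overlapped between p21 males (9997 to 11960) and SW males (11521 to 17456), as did Plin1 and Lipe, whereas Adipoq, Cidec and Pnpla2 were apart. Against DW males Fabp4, Adipoq and Cidec were apart, and Plin1, Lipe and Pnpla2 overlapped. The liver sums were apart from p21 after DW, at 30.8 to 35.4 against 21.8 to 27.4 in males and 35.1 to 59.7 against 24.2 to 31.3 in females. They were almost all Alb. The other liver marker, Apoa1, was at most 0.505 in any library and overlapped between p21 and DW in both sexes. Animal 30, the p21 female with the highest Igfbp3, had the lowest endothelial sum of its group (853) and an erythroid sum of 611 among 548 to 746. Its progenitor and fibroblast sum was the highest of its group, at 3579 against 2617 to 3037 (without Col1a1, 1152 against 788 to 792). In p21 males 37 and 38, with the higher Igfbp3, these sums were 4613 and 5393, against 1980 and 2043 in 53 and 54. Between p21 and p28 the progenitor and fibroblast sums overlapped in both sexes. The part of these cells in the Igfbp3 values was not tested.

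After DW, males kept Igfbp3 between 53.7 and 59.8, above all SW males (38.8 to 51.3) and above all DW females (39.5 to 52.4). Neither difference was called. DW minus SW males was 0.31 (SE 0.226, 95% interval -0.16 to 0.78, adjusted p = 0.904), in a comparison where ranges failed to overlap in 8.73% of all genes. It was 0.28 and 0.21 within animal numbers 73 to 80 and 81 to 87. DW females minus DW males was -0.34 (95% interval -0.80 to 0.13, adjusted p = 0.418), where 10.9% of genes did not overlap. In females DW minus SW was -0.08 (adjusted p = 0.865), and the difference of the weaning effects between the sexes was -0.40 (95% interval -1.06 to 0.27, adjusted p = 0.802).

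Igfbp2 codes for a binding protein that holds IGF1 and IGF2 in the pericellular space. It was the lowest member per kb, with 19 to 653 recovered reads per library, and its gene (chromosome 1, 72863662 to 72891633 as deposited) neighbours Igfbp5. The SW females were at 4.18, 3.21, 2.53 and 4.29 (73, 74, 75 and 81), and the SW males at 1.43, 0.266, 0.701 and 1.69 (78, 84, 85 and 124). The DW females were at 3.38, 3.02, 0.727 and 0.784 (76, 77, 82 and 83), and the DW males at 0.839, 0.630, 0.274 and 0.495 (79, 80, 86 and 87). The p21 females were at 1.04, 1.75, 0.752 and 2.41 (30, 36, 55 and 56), and the p21 males at 0.628, 0.581, 2.06 and 1.23 (37, 38, 53 and 54). All SW females were above all SW males and all p21 females. DW females 76 and 77 were within the range of the SW females, while 82 and 83 were in the range of the DW males.

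Igfbp2 was higher in SW females (3.55 ± 0.839) than in SW males (1.02 ± 0.655), by 1.21 on the log2(value + 1) scale (SE 0.302, limma adjusted p = 0.0190). In that comparison 7.77% of all genes did not overlap. edgeR's quasi-likelihood test on the recovered reads did not call it (1.77, adjusted p = 0.126), and DESeq2 did (1.79, adjusted p = 0.0258). The call was lost without SW male 84 (1.01, adjusted p = 0.113), SW male 85 (1.15, 0.0669), SW female 73 (1.14, 0.0740) or SW female 81 (1.13, 0.0696). Without SW male 84 and p21 male 53 together, the adjusted p was 0.0776. Within animal numbers 73 to 80 the difference was 0.80 (3 females and 1 male), and within 81 to 87 it was 1.85 (1 female and 2 males).

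From p21 to SW the female difference in Igfbp2 was 0.90 (SE 0.302, adjusted p = 0.0562), without overlap and just short of the call. It passed without p21 female 56 (1.07, adjusted p = 0.0365) and in a fit of just the compared groups (adjusted p = 0.0187). In males the same step was -0.08 (adjusted p = 0.901), and the difference between the sexes was 0.98 (95% interval 0.10 to 1.86, adjusted p = 0.512). DW minus SW females was -0.73 (SE 0.302, adjusted p = 0.220). It was -0.02 within animal numbers 73 to 80 and -1.59 within 81 to 87, where 1 SW animal stood against DW females 82 and 83. Without those DW females the weaning difference was -0.10 (adjusted p = 1.00). Between DW females and DW males the log2 difference was 0.81 (adjusted p = 0.153). DESeq2 called it (1.83, adjusted p = 0.0213), and so did limma without 82 and 83 (1.44, adjusted p = 0.00872).

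Mammary epithelial markers (Epcam, Krt8, Krt18, Krt19, Krt5, Krt14 and Csn3; 7 of 7 in the table) were also highest in SW females. They summed to 253 to 350 in SW females, 40.7 to 156 in p21 females and 96.5 to 212 in DW females. In males the sums were 1.25 to 40.3 after SW, 0.339 to 18.9 at p21 and 1.23 to 10.8 after DW, with Krt8, Krt5, Krt14 and Csn3 at 0 in at least 1 animal of each male group. DW females 76 and 77 had mammary sums of 212 and 192, against 96.5 and 97.6 in 82 and 83. These 2 pairs also differed in the adipocyte, endothelial, macrophage, erythroid and liver sums given above. The genes most like Igfbp2 over the 24 libraries were Lsr (r = 0.907), Muc1 (0.905) and Eya2 (0.904), as a description over animals that share sex and depot; Lsr and Muc1 are known as epithelial genes. The match was incomplete. Among the animals that went against it, p21 male 53 and SW male 124 had Igfbp2 at 2.06 and 1.69 with mammary sums of 0.339 and 1.54. DW females 82 and 83 had less Igfbp2 than DW male 79 (0.839), whose mammary sum was 1.57, and p21 female 36 had Igfbp2 at 1.75 with a sum of 95.2, close to theirs. The part of mammary epithelium in the Igfbp2 differences was not tested.

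**Figure D5:**
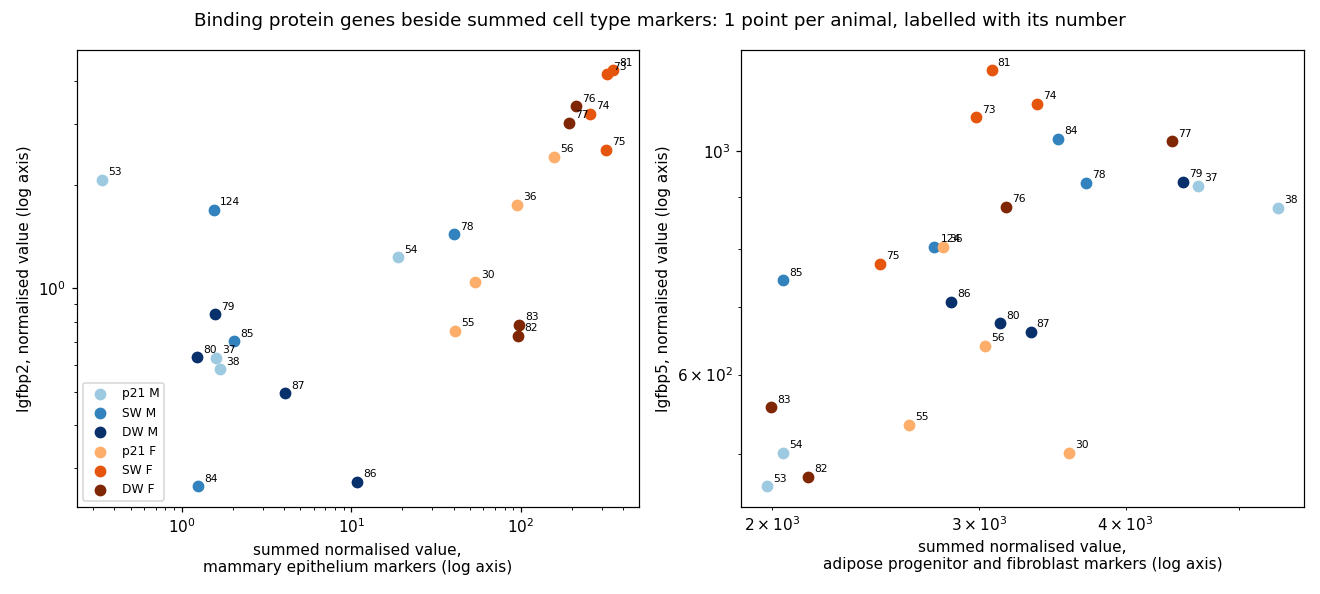
Left, Igfbp2 against the summed mammary epithelium markers; right, Igfbp5 against the summed adipose progenitor and fibroblast markers, in normalised values on log axes, 1 point per animal. SW females and DW females 76 and 77 lie at the upper right for Igfbp2, and DW females 82 and 83 and p21 males 53 and 54 at the lower left for Igfbp5.

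Igfbp5 was the most abundant member, and its gene (chromosome 1, 72897091 to 72914043 as deposited) lies on the strand opposite to Igfbp2. The SW females were at 1081, 1114, 772 and 1203 (73, 74, 75 and 81), and the p21 females at 502, 804, 535 and 641 (30, 36, 55 and 56). The DW females were at 880, 1023, 475 and 557 (76, 77, 82 and 83). The p21 males were at 924, 878, 465 and 502 (37, 38, 53 and 54), the SW males at 930, 1029, 744 and 803 (78, 84, 85 and 124), and the DW males at 933, 675, 709 and 662 (79, 80, 86 and 87). In p21 males and in DW females the animals fell into a high and a low pair, and all neighbouring groups overlapped.

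No Igfbp5 comparison was called. SW females (1043 ± 187) against p21 females (620 ± 136) gave 0.75 on the log2 scale (SE 0.247, 95% interval 0.24 to 1.27, adjusted p = 0.0501). DESeq2 called it (0.76, adjusted p = 0.0177), and limma did so without p21 female 36 (0.89, 0.0339) or SW female 75 (0.89, 0.0330), or in a fit of just the compared groups (adjusted p = 0.0227). In males the same step was 0.40 (adjusted p = 0.314), and the difference between the sexes was 0.35 (95% interval -0.37 to 1.08). DW minus SW females was -0.56 (95% interval -1.07 to -0.05, adjusted p = 0.238). Within animal numbers 73 to 80 it was -0.04, and within 81 to 87 it was -1.22.

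In p21 males and DW females, the summed progenitor and fibroblast markers were high in the high pairs of Igfbp5 values and low in the low pairs. They were 4613 and 5393 in p21 males 37 and 38 against 1980 and 2043 in 53 and 54, and 3166 and 4383 in DW females 76 and 77 against 2147 and 1998 in 82 and 83. Col1a1 was the largest term of the sum in each of these 8 animals. Without it they were 1326 and 1132 against 601 and 610 in the p21 males, but 1056 and 1265 against 1035 and 1083 in the DW females. In DW females 76 and 77 Col1a1 was at 2110 and 3118 and in 82 and 83 at 1111 and 915, whereas Dcn was at 600 and 696 against 618 and 666. Between SW and p21 females the full sums overlapped, at 2472 to 3361 and 2617 to 3579. Within p21 females the match was absent. Animal 30 had the lowest Igfbp5 (502) with the highest sum (3579), and animal 36 the highest Igfbp5 (804) with a sum of 2800. The pairs of p21 males and of DW females also differed in other marker lists, given above. The genes most like Igfbp5 over the 24 libraries were Fat4 (r = 0.873), Srgap1 (0.872) and Anpep (0.870). The part of these cells in the Igfbp5 values was not tested.

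Among the other likeness values, Igfbp3 was most like Fam133b (r = 0.903), Trmt10c (0.887) and Taf1d (0.887). Igf1 was most like Dnajb14 (r = 0.846), Stat5b like Slc4a2 (0.851), Socs2 like Rhou (0.828) and Ghr like Agtpbp1 (0.788). Igf1r was most like Zbtb20 (r = 0.777), Cish like Tent5a (0.771) and Igfbp4 like Msrb1 (0.757). No member was among the 3 genes most like another member. These are Pearson correlations of log2(value + 1) over n = 24 libraries, which share groups and depot, and are given as a description.

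Of 46 other genes listed for the pathway, 43 were in the table and tested; Igfbp1, Ins1 and Ins2 were not analysed here. None of the 43 was called between DW and SW animals in either sex or for the difference between the sexes, 6, 9 and 3 passed at an unadjusted p under 0.05 (14.0%, 20.9% and 6.98%, beside 6.94%, 18.9% and 5.09% of all genes), and edgeR and DESeq2 called 0 as well. The change from p21 to SW gave 1 rise and 2 falls in males, and 3 rises and 2 falls in females. From p21 to DW there were 3 rises and 2 falls in males, and 1 rise and 6 falls in females. These 3, 5, 5 and 7 calls of 43 stand beside 11.9%, 11.6%, 15.0% and 12.1% of all genes. For the difference between the sexes in the change from p21 to SW, 1 of 43 was called, Stc2, beside 1.03% of all genes. There edgeR called 0 and DESeq2 2. Between the sexes, 0 were called at p21 (7 at an unadjusted p under 0.05, or 16.3% beside 8.60% of all genes, and 0 by edgeR and DESeq2), 3 were higher in females after SW and 2 after DW, where 3.54% and 2.46% of all genes were called. Median log2 changes of the list stayed between -0.15 and 0.09 over these comparisons.

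Stc2, stanniocalcin 2, inhibits the pappalysin proteases that release IGF from its binding proteins. The SW females were at 49.0, 40.0, 59.2 and 46.7 (73, 74, 75 and 81), all above the SW males at 17.0, 5.54, 7.49 and 11.6 (78, 84, 85 and 124). The DW females were at 44.0, 46.2, 20.4 and 25.6 (76, 77, 82 and 83), and the p21 females at 20.2, 17.5, 13.3 and 27.5 (30, 36, 55 and 56). From p21 to SW it rose by 1.30 in females (SE 0.283, adjusted p = 0.00347), and in males the difference was -0.37 (adjusted p = 0.432). These changes differed between the sexes by 1.67 (SE 0.400, adjusted p = 0.0429), with adjusted p-values from 0.00830 to 0.177 over the alternatives. The call was kept in 6 of 22 alternatives, and leaving out any of 12 single animals ended it, with SW male 84 giving the lowest value (1.44, adjusted p = 0.107). Stc2 was higher in females than in males after SW (2.22, adjusted p = 7.50e-06) and after DW (1.57, adjusted p = 0.00157). The mammary epithelium sums were likewise apart between the sexes, at 253 to 350 against 1.25 to 40.3 after SW and at 96.5 to 212 against 1.23 to 10.8 after DW. At p21 these sums were also apart, at 40.7 to 156 in females against 0.339 to 18.9 in males. Stc2 itself overlapped between the sexes at p21 (13.3 to 27.5 against 10.2 to 16.0, limma adjusted p = 0.610). DW females 76 and 77, with the higher Stc2, had the higher mammary sums (212 and 192 against 96.5 and 97.6). The part of mammary epithelium in the Stc2 values was not tested.

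Prlr, the receptor for prolactin, signals through Jak2 and Stat5 like the growth hormone receptor. SW females were at 76.6, 62.8, 65.02 and 69.5, and SW males at 19.1, 20.2, 15.7 and 8.12, a log2 difference of 2.12 (SE 0.265, adjusted p = 5.78e-06). DW females were at 51.6, 53.8, 50.4 and 66.8, and DW males at 15.8, 15.3, 14.2 and 17.6, a difference of 1.75 (adjusted p = 0.000203). After both kinds of weaning every female was above every male, and both calls held in all 14 alternatives. At p21 the difference was 0.78 (adjusted p = 0.408). Ptprf, a receptor phosphatase, was also higher in SW females than in SW males (0.89, adjusted p = 0.00905), a call lost without SW female 81 (0.76, 0.0541). The mammary sums beside Stc2 separate the same groups. They also separate the sexes at p21, where Prlr overlapped (26.9 to 58.8 in females and 14.3 to 39.4 in males). Their part in the Prlr and Ptprf differences was not tested.

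Igfbp6, which codes for a binding protein with a preference for IGF2, rose in SW females from 7.49 ± 0.551 at p21 to 24.7 ± 7.61, by 1.55 on the log2 scale (SE 0.316, adjusted p = 0.00198). That call held in all 13 alternatives. The other genes that rose from p21 to SW were Htra1, a protease of binding proteins, in females and Irs2, an insulin and IGF1 receptor substrate, in males. Foxo1 and Pik3r1 fell in SW females, and Grb14 in SW males. These 5 calls were less stable than that of Igfbp6. Htra1 and Foxo1 lost theirs in 6 of 13 alternatives, Pik3r1 in 7 of 13, and Irs2 and Grb14 in 7 of 14, with adjusted p-values of up to 0.0975, 0.110, 0.193, 0.179 and 0.223. Most of these losses came from leaving out a single animal. Pappa, the protease of Igfbp4, fell in males from p21 both to SW (-0.62, adjusted p = 0.0190) and to DW (-0.58, adjusted p = 0.0226). Both Pappa calls were lost without p21 male 53 (-0.42 and -0.38, adjusted p = 0.0658 and 0.0922), the first also without SW male 85 (-0.55, 0.0687) and the second without DW male 80 (-0.57, 0.0507) or DW male 87 (-0.58, 0.0572). A fit of just the compared groups ended both as well (adjusted p = 0.125 and 0.0807).

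From p21 to DW, Igfbp7, Igf2r and Lrp1 rose and Stc1 fell in males, while in females Igfbp7 rose and Stc1, Akt1, Akt2, Stat5a, Sh2b2 and Igf2 fell. In males Igf2r and Stc1 kept their calls in all 14 alternatives. Igfbp7 lost its male call in 2 of 14, without p21 male 54 or DW male 79. Lrp1 lost its call in 5 of 14, among them without p21 male 53 or DW male 79, 80 or 87. Igf2, the fetal growth factor of the family, was at 2.71, 2.62, 0.490 and 0.425 in DW females 76, 77, 82 and 83 and at 7.25, 3.58, 4.65 and 5.02 in p21 females 30, 36, 55 and 56. The groups did not overlap, and the fall was -1.37 (SE 0.408, adjusted p = 0.0302). It was -0.71 (adjusted p = 0.382) without animals 82 and 83, and the call was also lost without 82 (-1.16, adjusted p = 0.106), 83 (-1.14, 0.119) or p21 female 30 (-1.22, 0.0899), 55 (-1.40, 0.0542) or 56 (-1.37, 0.0601). edgeR (-1.71, 0.0748) and a fit of just the compared groups (0.0722) did not call it either. Without animals 82 and 83, 6 of the 7 calls in DW females were lost, with adjusted p-values of 0.110 for Stat5a, 0.236 for Igfbp7, 0.268 for Akt2, 0.276 for Akt1, 0.382 for Igf2 and 0.622 for Sh2b2. A fit of just the compared groups called none of the 7, with adjusted p-values from 0.0640 for Stc1 to 0.223 for Sh2b2, and edgeR also did not call Akt2 (0.0725) and Sh2b2 (0.0665). Without p21 male 53 and SW male 84, the male calls of Irs2 (adjusted p = 0.179), Grb14 (0.223) and Lrp1 (0.104) were lost, as was that of Pappa after DW (0.0763).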

How the data were processed

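RNA of 24 mice was measured, 1 library per animal, and the labels of age, sex and weaning gave the groups. Animals are separate mice and their numbers are not shared between groups, so nothing was paired. The table that the authors deposited holds normalised expression as a signal, in which each library's reads were scaled by 1 factor. The submitters' processing notes name fastp, HISAT2, featureCounts, DESeq2 1.38.3 and the build mm10, without saying which step made the table. The annotation, the strand setting and the scaling are not given in the sources used here, so reads of overlapping antisense genes cannot be told apart. All deposited values (100%) were whole multiples of the library's smallest step, within 0.01, and whole reads were recovered from them. They lay within 0.965 to 1.03 of a TMM scaling. Of 16208 entries, 90 repeats were left out. The authors' fold changes were not used here.

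Genes were kept by filterByExpr (minimum count 10 on recovered reads). Values were analysed as log2(value + 1) with limma 3.58.1 in R 4.3.3 (lmFit, eBayes with trend), with all 24 libraries and 6 group coefficients in 1 fit, leaving 18 residual degrees of freedom. This scale understates changes of low genes such as Igfbp2. The method was tested on simulated data. Alternatives were a pseudocount of 0.1, no filter, edgeR 4.0.16 and DESeq2 1.42.0 on recovered reads, only the compared groups, and leaving out each animal. Leaving out DW females 82 and 83, or p21 male 53 and SW male 84, was chosen after seeing the data. The members, the pathway and marker lists and the likeness rule (the 3 genes with the highest Pearson correlation) were chosen with earlier results of these data known. All 10 members are named, and any pathway gene could be.

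Gene positions are printed as deposited. They differ from GENCODE M21 (GRCm38) by a constant shift per region, so their build is not clear. Only gene lengths come from GENCODE M21, and promoter windows from RefSeq (GRCm38.p6).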

Additional observations from a re-analysis of the deposited data

Results flagged for a closer look

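In p21 female 36, Igf1r was at 4.90 on the log2(value + 1) scale (28.9 normalised), and its gap to the next animal of the group was 0.852 of the group's range. In p21 female 30, Igfbp3 was at 7.39 (166.8 normalised), with a gap of 0.930 of the range above the other 3 animals. Both gaps exceed the 95% limit that Dixon's test sets for 4 samples. Over 90 groups of 4 (10 members and 5 pathway genes), chance gives about 4.5 such animals, 1 in 20, so these 2 are fewer than chance alone would give.

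The change of Stc2 from p21 to SW differed between females and males by 1.67 on the log2 scale (SE 0.400, limma adjusted p = 0.0429). It was 1.30 in females, in whom all 4 SW animals were above all 4 p21 animals, and -0.37 in males. Ranges failed to overlap in 21.5% of all genes between SW and p21 females. The call for the difference between the sexes was lost in 16 of 22 alternatives, edgeR among them.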

How the results depend on the processing

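Direction was kept in all 269 alternative values of the 17 member differences that were called in some fit with all animals or were over 0.5 on the log2 scale. The side of the threshold was kept in 244 of them, lost in 16 and gained in 9. Differences without a call had none to lose, so all 16 losses fell on the called ones. The Igfbp3 calls were lost in 5 of 14 alternatives for p21 to SW in males and 3 of 13 in females. For p21 to DW in females the Igfbp3 call was lost in 2 of 14, and the Igfbp2 call between the sexes after SW in 6 of 14. The 26 calls in the pathway list were lost in 104 of 367 alternative values, and this share is to be set beside those of the called members alone.

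The number of members called moved as follows. Leaving out single animals gave 0 to 1 for DW against SW in females (0 with all animals), 0 to 1 for p21 to SW in males (1), 0 to 2 in females (1) and 0 to 1 for the sexes after SW (1). DESeq2 gave 2 for p21 to SW in females and 1 for the sexes after DW, and edgeR gave 0 for the sexes after SW. When the fit held just the compared groups, p21 to SW in females gave 2 and p21 to DW in females 0. Without DW females 82 and 83, p21 to DW in females gave 0 and the sexes after DW 1. Without p21 male 53 and SW male 84, the sexes after SW gave 0. The cause of these shifts was not tested.

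The background over all genes also moved. DW against SW in males had 41 calls, with 111 by DESeq2, 98 with only the compared groups, and 10 to 42 without single animals (10, 17, 20 and 24 without DW male 87, SW male 84 and DW males 79 and 80). In females there were 204, with 63 at a pseudocount of 0.1, 71 by edgeR, 1 with only the compared groups, 7 without DW females 82 and 83, and 45 to 1996 without single animals (1996, 871, 45 and 48 without DW females 76, 77, 82 and 83). The difference between the sexes had 3, with 0 to 8 without single animals, 0 at a pseudocount of 0.1, by edgeR and without DW females 82 and 83, and 1 by DESeq2 and with only the compared groups. From p21 to SW males had 1901, with 822 from the compared groups, 1037 without p21 male 53 and SW male 84, and 1150 without SW male 85. To DW, males had 2395 (1450 without those animals, 1236 without DW male 87, 1545 without 86, 1374 without p21 male 53) and females 1938 (495 from the compared groups, 1071 without DW female 83, 3123 without 76). The sex difference in the change to SW had 165, with 38 at a pseudocount of 0.1, 4 by edgeR and 102 by DESeq2. The sexes at p21 had 57, with 92, 15, 115, 5 and 13 at a pseudocount of 0.1, by edgeR, by DESeq2, from the compared groups and without p21 male 53 and SW male 84, and 18 to 99 without single animals. After DW they had 394, with 848 by DESeq2, 256 from the compared groups, 1829 without DW female 76 and 1507 without 77.

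No paired analysis was possible because animal numbers are not shared between groups. Depth limits Igfbp2 most, with 19 reads in SW male 84, and 4 animals a group can leave Cish differences of over 1 on the log2 scale undetected.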
